A study of Mus musculus with 200 samples.

Results

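The libraries labelled Zfp57 KO are 3 epiblast samples of mouse embryos at E5.0, and they were set against the 3 epiblast samples labelled Wild type of the same screen batch, batch 5. These 6 libraries are part of a screen table of 50 groups in 10 batches, and of a series of 200 libraries. Each knockout embryo had been made by C-CRISPR, which directs Cas9 with several neighbouring guides to 1 gene in the embryo itself, and all groups had been cultured through the peri-implantation period. Each library was amplified by Smart-seq2 from polyadenylated RNA of a pool of about 10 to 100 cells over 17 cycles. The labels give 3 biological replicates a group but not how embryos were divided among them. Batch 5 also holds 3 Ezh2 KO and 3 Kdm6b KO libraries, made in the same way, which were used as a further point of comparison. Ezh2 encodes the methyltransferase of Polycomb repressive complex 2, and Kdm6b a demethylase of the same histone mark. In a pool of cells, fewer cells of a type and less RNA per cell cannot be told apart.

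ZFP57 is a KRAB zinc finger protein that recognises a methylated TGCCGC motif in imprinting control regions. Through KAP1 (Trim28) and its partners it keeps the DNA methylation of the imprinted allele during the genome-wide demethylation of the early embryo. In mice, maternal and zygotic ZFP57 both contribute to this protection. Imprinted genes are expressed mainly from the allele of 1 parent, so loss of the mark can raise or lower a transcript according to which allele carries it. TPM do not separate the alleles.

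Values are TPM (transcripts scaled to a fixed library total), a relative abundance corrected for transcript length. Log2 changes are Zfp57 KO minus control on the log2(TPM + 1) scale, which understates the changes of low genes. A gene "passed" where limma, fitted across all libraries of the screen, gave a Benjamini-Hochberg adjusted p under 0.05. The 6 libraries held between 9004 and 10490 genes at 1 TPM or more, and within-group correlations of log2(TPM + 1) were 0.963 to 0.966 for Zfp57 KO and 0.939 to 0.949 for controls, against 0.936 to 0.953 between the groups. No read counts were given, so the depth of each library is unknown.

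The epiblast label was checked against markers. Pou5f1, a core pluripotency factor, stood at 84.8, 56.2 and 69.1 TPM in Zfp57 KO and at 118, 70.8 and 83.1 TPM in controls. Utf1, an epiblast chromatin factor, stood at 669, 561 and 661 TPM in Zfp57 KO and at 970, 886 and 874 TPM in controls. All 6 libraries thus held epiblast transcripts. They also held trophoblast transcripts in both groups: Prl3d1, a placental lactogen of trophoblast giant cells, measured 1730, 1985 and 1769 TPM in Zfp57 KO and 1164, 1258 and 1423 TPM in controls, against at most 6.02 TPM in the Ezh2 KO libraries and 5.32 TPM in the Kdm6b KO libraries of the batch. The summed level of the 20 trophectoderm and extraembryonic ectoderm markers was 5760, 5130 and 5360 TPM in Zfp57 KO and 3760, 3680 and 3640 TPM in controls. Unlike Prl3d1, it was highest in Ezh2 KO, at 8590, 6350 and 7890 TPM, and it was 1440, 1540 and 1500 TPM in Kdm6b KO. That of the 24 primitive endoderm markers was 1990, 1630 and 1760 TPM in Zfp57 KO and 1000, 1180 and 1110 TPM in controls. That of the 13 epiblast markers was 1310, 1100 and 1270 TPM in Zfp57 KO and 1450, 1340 and 1320 TPM in controls. Both extraembryonic sums were therefore higher in every Zfp57 KO library than in any control. Their part in the results below was not tested.

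Control replicate 2 stood apart. The summed level of 19 oocyte genes, a list chosen after the values had been seen, was 14.1, 19.6 and 42.2 TPM in Zfp57 KO and 4.42, 2820 and 78.6 TPM in controls. The value of 2820 TPM was the highest of all libraries of the screen, whose median was 17.8 TPM. H1f8, the oocyte linker histone, measured 0.267, 5.57 and 9.67 TPM in Zfp57 KO and 0.241, 808 and 17.1 TPM in controls. Without that library 556 genes passed as higher and 940 as lower. Rn45s, the ribosomal RNA precursor, measured 1607, 2712 and 4701 TPM in Zfp57 KO and 6295, 8614 and 5766 TPM in controls, and its part in the results was not tested.

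**Figure D1:**
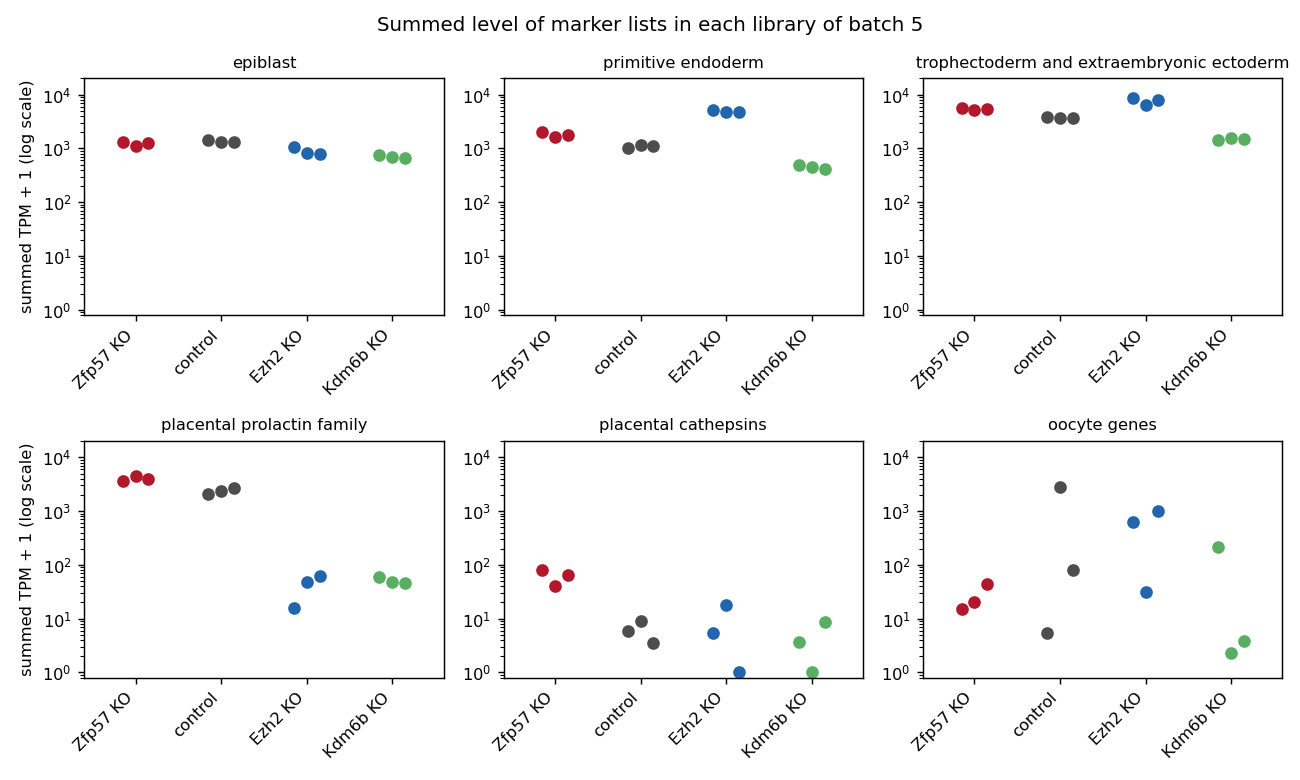
Summed TPM + 1 on a log scale for 6 marker lists in each library of batch 5; each point is 1 library, coloured by group. Epiblast sums lie close together in Zfp57 KO and controls, the extraembryonic sums are higher in Zfp57 KO, and 1 control library reaches 2820 TPM of oocyte genes.

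Zfp57 itself was lower on average but not in every library. It measured 16.2, 2.21 and 5.08 TPM in Zfp57 KO and 22.5, 21.9 and 7.71 TPM in controls. The library labelled Zfp57 KO replicate 1 lay within the control range, and the groups overlapped. The log2 change of -1.27 (SE 0.46, n = 3 each) passed narrowly in limma, with an adjusted p of 0.0437. It did not pass in the fit of the 12 libraries of batch 5, where the adjusted p was 0.323. The call was also lost without Zfp57 KO replicate 3 or either of control replicates 1 and 2. Leaving out a library gave log2 changes of -0.71 (without Zfp57 KO replicate 2, adjusted p 0.427) to -1.92 (without Zfp57 KO replicate 1, adjusted p 0.00324). A TPM over the whole gene does not show which exons had been cut, so this value checks the labels only in part, and Zfp57 KO below stands for the libraries so labelled. In the other groups of batch 5 Zfp57 measured 23.6, 8.21 and 18 TPM in Ezh2 KO and 10.6, 3.2 and 2.6 TPM in Kdm6b KO. The Kdm6b KO libraries lay within the range of the Zfp57 KO libraries. Across the screen the Zfp57 KO group mean of 7.85 TPM ranked 46 of 50, and the means of the 10 control groups ran between 4.75 and 45.2 TPM.

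Of 68 imprinted genes in 3 lists, 65 were in the table and 45 reached the level for testing. In Zfp57 KO 1 of them was higher (Phlda2) and 8 were lower (Mest, Slc38a4, Sfmbt2, Nap1l4, H19, Blcap, H13 and Bcl2l1), while 36 did not pass. Over all 10191 genes tested, 16.8% passed, 5.33% as higher and 11.5% as lower; 9 of 45 imprinted genes (20%) is close to that share. Their median log2 change was 0.103, against -0.156 over all genes tested. These lists were drawn up with earlier results of the screen known.

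Phlda2 was the clearest change among them. It is a maternally expressed pleckstrin homology gene of the Kcnq1ot1 imprinted domain on chromosome 7 that restrains placental growth. Phlda2 measured 2503, 2204 and 2020 TPM in Zfp57 KO, against 870, 813 and 951 TPM in controls. Every Zfp57 KO library was more than 2 times above every control. The log2 change was 1.35 (SE 0.13, limma adjusted p = 3.35e-14). The Ezh2 KO libraries had 737, 485 and 740 TPM and the Kdm6b KO libraries 759, 839 and 869 TPM, so Zfp57 KO stood above all 9 other libraries of the batch. Among the 50 groups of the screen its mean of 2240 TPM ranked 3, below a highest mean of 5390 TPM in Suz12 KO of batch 2, and 8 of the other 145 libraries exceeded the lowest Zfp57 KO library. Phlda2 is also a trophoblast gene. The trophoblast marker sums given above were higher in Zfp57 KO than in controls, and higher still in Ezh2 KO. Their part in the change of Phlda2 was not tested.

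Cdkn1c, Ascl2 and Slc22a18 of the same domain did not pass. Cdkn1c, a maternally expressed inhibitor of cyclin-dependent kinases, measured 39.5, 58.2 and 73.4 TPM in Zfp57 KO and 38.2, 28 and 42.9 TPM in controls (log2 change 0.61, adjusted p = 0.372 in limma). Ascl2, a trophoblast transcription factor, measured 31.5, 34.3 and 33.8 TPM in Zfp57 KO and 14.8, 38.9 and 28.7 TPM in controls. Slc22a18, which encodes a transporter, measured 3.17, 5.23 and 7.94 TPM in Zfp57 KO and 3.18, 0 and 0 TPM in controls (log2 change 1.93, adjusted p = 0.0647 in limma). The long noncoding RNA Kcnq1ot1 was under 1 TPM in all 6 libraries and was not tested. Nap1l4, a histone chaperone gene next to Phlda2, was lower in Zfp57 KO at 54.6, 32.1 and 38 TPM, against 99.8, 104 and 81.5 TPM in controls (log2 change -1.20, SE 0.31, limma adjusted p = 0.00312). Against controls Phlda2 and Nap1l4, neighbours on chromosome 7, thus differed in opposite directions. Nap1l4 was also low in the other knockouts, at means of 50.55 TPM in Ezh2 KO and 54.6 TPM in Kdm6b KO. The differences of Zfp57 KO from these had adjusted p of 0.652 and 0.548 in limma.

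Mest showed the largest fall of the paternally expressed genes that passed. It encodes an alpha/beta hydrolase-like protein of mesoderm, and its promoter is an imprinting control region. Mest measured 45, 18 and 38.7 TPM in Zfp57 KO and 163, 132 and 101 TPM in controls, with no overlap. The log2 change was -1.999 (SE 0.36, limma adjusted p = 1.16e-05). The Ezh2 KO libraries, at 80.3, 48.5 and 60.2 TPM, and the Kdm6b KO libraries, at 35.9, 37.6 and 38.5 TPM, were also below all controls of the batch. The difference of Zfp57 KO from Ezh2 KO had an adjusted p of 0.0609 and that from Kdm6b KO 0.805 in limma, and these comparisons use the same Zfp57 KO libraries. Among 40 knockout groups of the screen, each set against the controls of its own batch, the change of Mest in Zfp57 KO was the second lowest.

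Mest and Phlda2 are shown with their promoters because Phlda2 was the imprinted gene that passed as higher, Mest had the smallest adjusted p of the paternally expressed genes, and the windows shown differ in the ZFP57 motif. The windows run from 250 bases before to 50 bases after the start of transcription on the gene's strand, from RefSeq, build GRCm38.p6. Capitals mark TGCCGC or its reverse complement GCGGCA, searched on both strands. The Mest window is chr6:30737800-30738099 on the plus strand and the Phlda2 window chr7:143502475-143502774 on the minus strand.
Mest: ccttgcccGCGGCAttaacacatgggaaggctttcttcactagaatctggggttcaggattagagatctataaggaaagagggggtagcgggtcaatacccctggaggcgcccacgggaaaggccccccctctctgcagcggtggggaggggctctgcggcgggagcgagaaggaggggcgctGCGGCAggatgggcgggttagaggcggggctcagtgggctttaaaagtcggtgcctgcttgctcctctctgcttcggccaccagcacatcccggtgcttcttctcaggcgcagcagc
Phlda2: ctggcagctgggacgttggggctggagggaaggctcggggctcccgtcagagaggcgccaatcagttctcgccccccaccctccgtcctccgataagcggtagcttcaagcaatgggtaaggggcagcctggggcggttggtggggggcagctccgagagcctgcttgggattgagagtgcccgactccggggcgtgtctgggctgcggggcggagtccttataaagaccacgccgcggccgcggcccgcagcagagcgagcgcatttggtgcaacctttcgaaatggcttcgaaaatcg

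The Mest window shown holds the motif 2 times, both as GCGGCA, and the Phlda2 window 0 times. The 2 genes were chosen partly for this difference, so it is not a result. Of the 3 Mest windows in the table, the one shown and another that starts 3 bases further on hold it 2 times, and that of an upstream start, chr6:30733256-30733555, holds it 0 times. Of all 32851 promoter windows of this length, 3813 (11.6%) hold it at least once. Of the 83 windows of the 53 imprinted genes that matched the table by symbol, 18 (21.7%) hold it. The 3 windows of Slc38a4 hold it 0 times. So do all windows of Blcap, H13 and Sfmbt2, which passed, while 1 window of Bcl2l1, which also passed, holds it 2 times. Among genes that did not pass, 1 window of Zdbf2 holds it 3 times and that of Nap1l5 2 times, while others such as Peg3 hold it 0 times. Whether the motif goes with the changes was not tested. A match is a description of these letters and not a measured site, and imprinting control regions outside these windows were not searched.

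Of 6 genes tested on the list of imprinting by maternal H3K27me3, Slc38a4 and Sfmbt2 were lower, against 11.5% of all genes. This noncanonical imprint is a histone mark inherited from the oocyte and is known in mice to act mainly in extraembryonic tissue. Slc38a4, an amino acid transporter, measured 18, 9.68 and 24.7 TPM in Zfp57 KO and 44.2, 38.1 and 65.1 TPM in controls. All 3 Zfp57 KO libraries lay below all controls, and also below the Ezh2 KO libraries at 89.2, 63.3 and 48 TPM and the Kdm6b KO libraries at 43.6, 42 and 49.4 TPM. The log2 change against controls was -1.50 (SE 0.26, limma adjusted p = 3.57e-06). Its group mean of 17.5 TPM ranked 49 of 50 groups in the screen. Sfmbt2, a Polycomb-related gene of trophoblast, measured 16.6, 13.7 and 16 TPM in Zfp57 KO and 53.2, 43.7 and 19.8 TPM in controls (log2 change -1.17, SE 0.30, limma adjusted p = 0.00267). Gab1, Jade1, Smoc1 and Xist of this list did not pass. In the fit of batch 5 alone 1 of the 6 was lower, and without control replicate 2, 2 were lower and 1 higher.

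The other falls were smaller or sat on lower levels. H19, the maternally expressed noncoding RNA beside Igf2, measured 311, 200 and 261 TPM in Zfp57 KO and 415, 411 and 355 TPM in controls (log2 change -0.63, SE 0.17, limma adjusted p = 0.00463). Igf2, the paternally expressed growth factor of that locus, measured 12.6, 15.7 and 15.8 TPM in Zfp57 KO and 13.3, 13.4 and 8.11 TPM in controls and did not pass. Blcap, an apoptosis-related gene that shares its locus with Nnat, measured 4.87, 2.06 and 2.54 TPM in Zfp57 KO and 16.8, 24.5 and 8.5 TPM in controls. Its change of -2.03 (adjusted p = 0.00143 in limma) was the lowest of Blcap among the 40 knockout groups of the screen. Nnat itself overlapped between the groups at 12.2, 10.9 and 20.8 TPM in Zfp57 KO and 31.7, 13.8 and 27 TPM in controls. H13, a signal peptide peptidase, had a log2 change of -0.71 (adjusted p = 0.0194 in limma), while Mcts2, the retrogene inside it, measured 65.8, 53.9 and 63.4 TPM in Zfp57 KO and 57.6, 26.8 and 20.7 TPM in controls (log2 change 0.91, adjusted p = 0.111 in limma). Bcl2l1, an inhibitor of apoptosis, measured 2.31, 1.54 and 3.9 TPM in Zfp57 KO and 17.1, 10.8 and 8.24 TPM in controls (log2 change -1.86, adjusted p = 0.0024 in limma). Sfmbt2, H19, Blcap, H13 and Bcl2l1 did not pass in the fit of batch 5 alone, in which Phlda2, Mest, Slc38a4 and Nap1l4 did. The means of H13, Blcap and Bcl2l1 were below the control means in Ezh2 KO too, at 25.2, 5.83 and 4.87 TPM. In Kdm6b KO they were 25.2, 6.65 and 2.46 TPM. In limma H13, Blcap and Bcl2l1 passed against neither of these knockouts.

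Most imprinted genes at moderate levels did not pass. Grb10, a maternally expressed signalling adaptor, did not overlap between groups at 39.6, 39.2 and 35.4 TPM in Zfp57 KO and 18.7, 23.6 and 13.7 TPM in controls, but its log2 change of 1.02 had an adjusted p of 0.145 in limma. Meg3, the maternally expressed noncoding RNA of the Dlk1-Dio3 locus, measured 32.2, 26.9 and 39 TPM in Zfp57 KO and 38.4, 9.62 and 24.4 TPM in controls. Snurf, of the Prader-Willi locus, measured 178, 251 and 349 TPM in Zfp57 KO and 312, 297 and 266 TPM in controls. Impact, a translational regulator, measured 17.7, 21.8 and 14.8 TPM in Zfp57 KO and 13.1, 15.8 and 13.6 TPM in controls. These groups overlapped except for Grb10. Peg3, a zinc finger gene, was at 3.04 to 8.3 TPM in Zfp57 KO and at 1.92 to 13.4 TPM in controls. Plagl1, Dlk1 and Rasgrf1 were under 1 TPM in all 6 libraries. With quantile normalization, which moves the median change of all genes to 0.011, 6 imprinted genes passed as higher (Phlda2 with Grb10, Igf2r, Mcts2, Slc22a18 and Meg3) and 7 as lower. Without control replicate 1, Mcts2, Slc22a18 and Meg3 also passed as higher beside Phlda2, and Sfmbt2 and H13 no longer passed as lower. Without control replicate 2, Xist passed as higher beside Phlda2 and the same 8 genes passed as lower.

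**Figure D2:**
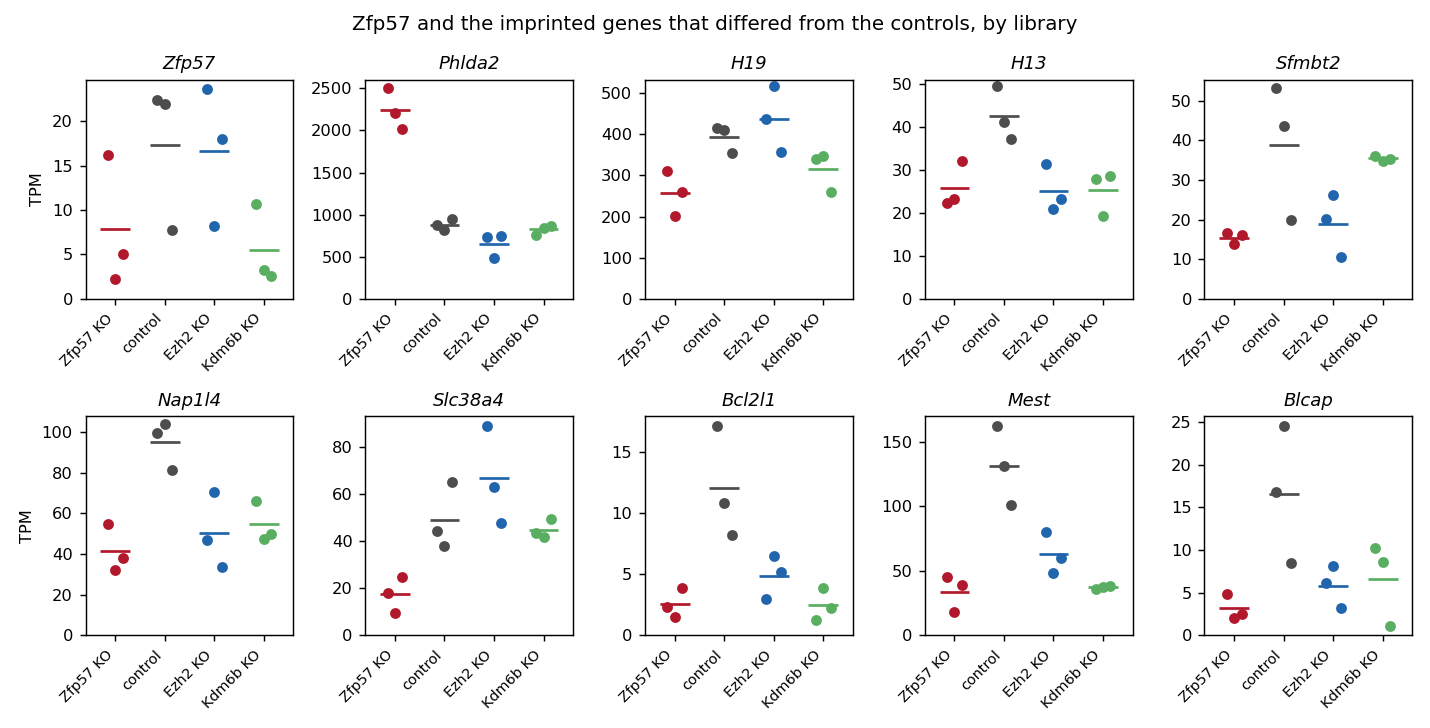
TPM of Zfp57 and of the 9 imprinted genes that passed against controls, in the 12 libraries of batch 5; points are libraries and bars are means of 3. Phlda2 is above all other libraries and Slc38a4 below all others in Zfp57 KO, while Mest, Nap1l4, H13 and Bcl2l1 are below the controls in all 3 knockouts.

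Across all genes, 543 were higher and 1169 lower in Zfp57 KO. The calls were 31.7% higher ones; with quantile normalization they were 823 higher and 841 lower, 49.5% higher ones. The count depends on which libraries estimate the spread: 184 were higher and 278 lower in the fit of batch 5 alone, and without Zfp57 KO replicate 2 the screen-wide fit gave 360 and 655. Of the calls of batch 5 alone, 183 and 272 were also among the calls of the screen-wide fit. The groups of 3 did not overlap for 8.7% of genes in the higher direction and 17.7% in the lower.

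**Figure D3:**
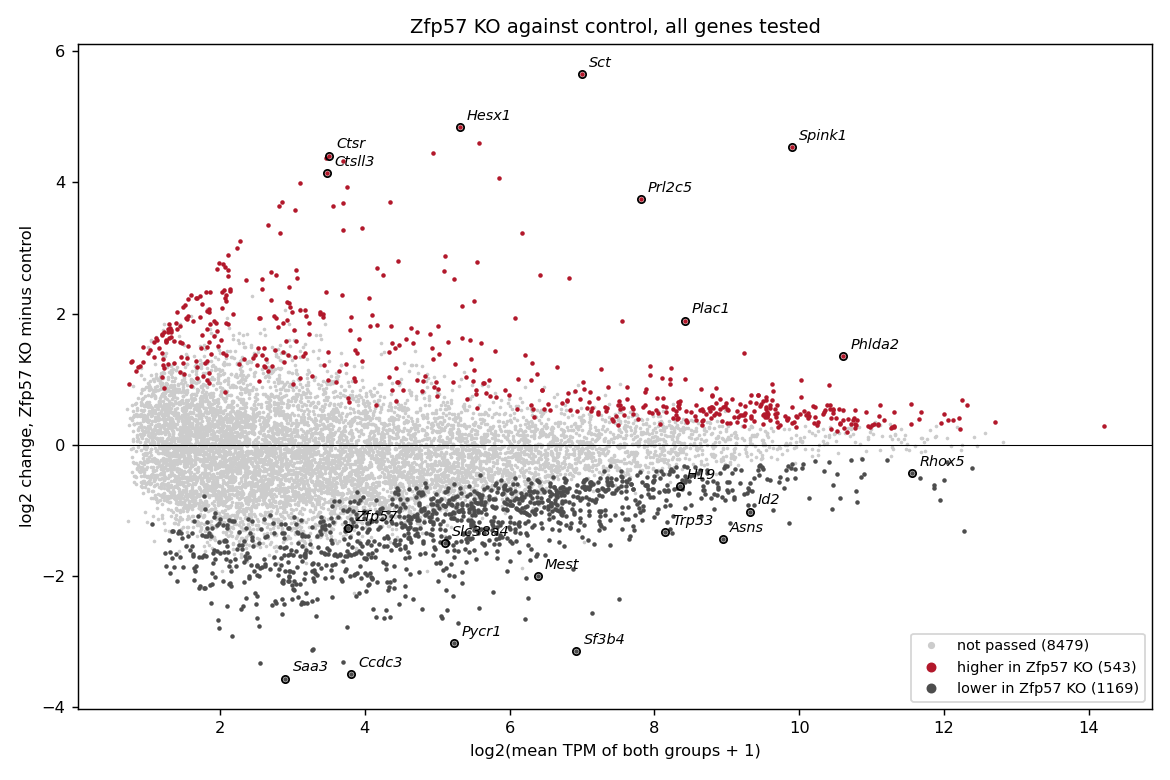
Log2 change of Zfp57 KO against control plotted over log2(mean TPM + 1) for the 10191 genes tested; coloured points passed at an adjusted p under 0.05. Sct, Hesx1, Spink1, Ctsr and Ctsll3 lie highest among the labelled genes, and Saa3, Ccdc3, Sf3b4 and Pycr1 lowest.

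The 12 largest rises included Sct, Hesx1 and Spink1. Sct, which encodes the hormone secretin, measured 250, 286 and 209 TPM in Zfp57 KO and 1.01, 13.9 and 2.97 TPM in controls (log2 change 5.65, SE 0.41, limma adjusted p = 1.3e-21). Spink1, a secreted protease inhibitor, measured 1733, 1961 and 1786 TPM in Zfp57 KO and 84.3, 67.3 and 82.6 TPM in controls (log2 change 4.54). Hesx1, a homeobox repressor of the anterior epiblast and visceral endoderm, measured 69.7, 64.6 and 87.3 TPM in Zfp57 KO and 9.64, 0 and 0.609 TPM in controls (log2 change 4.85). In each of these genes every Zfp57 KO library was far above every control. Groups without overlap were required of all the rises named. The others were Rbp4, a retinol carrier, Akr1c19, a reductase, Ptgds, prostaglandin D synthase, Apom, an apolipoprotein, Gkn1, a gastrokine, Pilra, a paired immunoglobulin-like receptor, Serpinb6c, a protease inhibitor, and the cathepsins Ctsr and Ctsll3, with log2 changes of 3.93 (Gkn1) to 4.61 (Rbp4). Ptgds, Pilra, Ctsr and Ctsll3 were listed at 0 in all 3 controls.

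Many of these genes were also high in the Ezh2 KO libraries of the batch. Sct averaged 248 TPM in Zfp57 KO, 373 TPM in Ezh2 KO, 10.2 TPM in Kdm6b KO and 5.95 TPM in controls. Spink1 averaged 3899 TPM in Ezh2 KO and 17.8 TPM in Kdm6b KO, and Hesx1 103 TPM in Ezh2 KO and 1.07 TPM in Kdm6b KO. Rbp4, Akr1c19, Ptgds, Apom and Gkn1 were likewise high in Ezh2 KO and low in Kdm6b KO. Serpinb6c was uneven in Ezh2 KO, at 91.3, 23.1 and 2.62 TPM, and Ctsr and Ctsll3 had Ezh2 KO means of 0.0608 and 0.0221 TPM.

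The 12 largest falls were Saa3, Ccdc3, Prl4a1, Hpdl, Sf3b4, Smim3, Cxcl11, Pycr1, Tent5c, Ceacam15, Pnpla2 and Ccdc134. Saa3, an acute-phase serum amyloid, was listed at 0 in all Zfp57 KO libraries and measured 15.85, 3.882 and 19.05 TPM in controls. Ccdc3, a secreted coiled-coil protein, measured 0.874, 2.69 and 0.578 TPM in Zfp57 KO and 26.4, 30.1 and 17.5 TPM in controls (log2 change -3.50, SE 0.62, limma adjusted p = 6.44e-06). Pycr1, which makes proline, measured 9.89, 10.9 and 3.21 TPM in Zfp57 KO and 66.7, 67 and 62 TPM in controls (log2 change -3.02). In all 3 genes the groups did not overlap, which the rule for naming the largest falls required. Sf3b4, a splicing factor, varied within groups at 15.2, 4.87 and 95.9 TPM in Zfp57 KO and 317, 181 and 108 TPM in controls. Prl4a1 and Ceacam15, both trophoblast genes, were listed at 0 in all Zfp57 KO libraries and stood between 4.94 and 12.3 TPM in controls. Pycr1 and Sf3b4 were also low in the other knockouts of the batch, at means of 17.6 and 11.7 TPM in Ezh2 KO and 12.3 and 7.19 TPM in Kdm6b KO. All libraries of both knockouts lay below every control for these genes and for Prl4a1, Cxcl11, Tent5c, Ceacam15 and Pnpla2. The other falls named overlapped the controls in Ezh2 KO or Kdm6b KO libraries. The Pycr1 level of the batch 5 controls, 65.3 TPM, was the highest of the 50 groups.

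**Figure D4:**
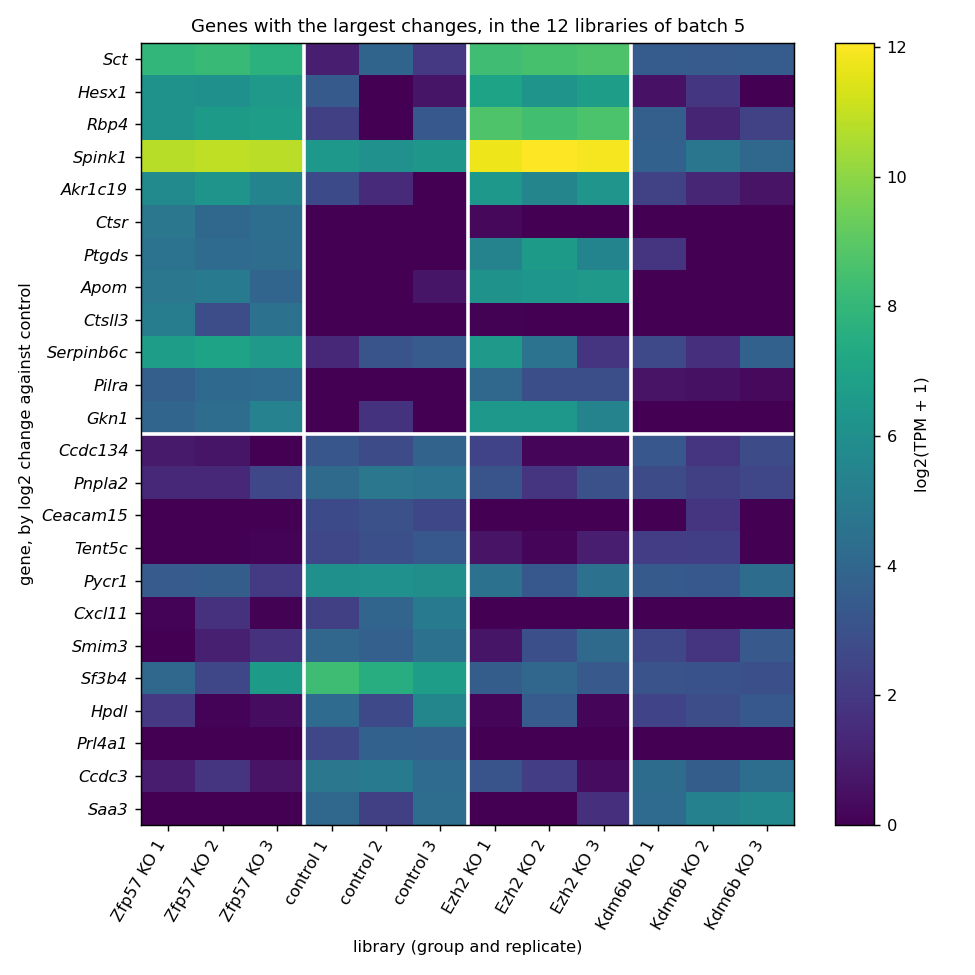
Log2(TPM + 1) of the 12 largest rises and 12 largest falls in the 12 libraries of batch 5, with genes as rows and libraries as columns. Most rises are also high in the Ezh2 KO libraries, and Ctsr and Ctsll3 are near 0 in the other 9 libraries. Among the falls Prl4a1, Cxcl11, Pycr1, Sf3b4, Tent5c, Ceacam15 and Pnpla2 are below the controls in all 3 knockouts. The other falls, such as Saa3, are not.

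Primitive endoderm markers were higher in Zfp57 KO. This lineage lines the blastocyst cavity and gives rise to visceral and parietal endoderm. Of 18 markers tested 13 were higher and 0 lower, with a median log2 change of 1.19, against 5.33% higher among all genes. Srgn, a proteoglycan of parietal endoderm, measured 133.6, 156.8 and 147.5 TPM in Zfp57 KO and 20.9, 26.1 and 23.2 TPM in controls (log2 change 2.59, adjusted p = 4.37e-09 in limma). Ttr, the thyroxine carrier of visceral endoderm, measured 62.5, 40 and 78.8 TPM in Zfp57 KO and 17.1, 13 and 26.8 TPM in controls. Apoa1, an apolipoprotein, measured 39.7, 49.2 and 21.9 TPM in Zfp57 KO and 1.57, 8.26 and 4.7 TPM in controls. Gata4, a transcription factor of the lineage, was low in both at 1.73, 4.75 and 1.43 TPM in Zfp57 KO and 0, 0.149 and 0.262 TPM in controls, and Gata6, Sox7 and Pdgfra did not reach the level for testing. In the other knockouts Srgn measured 336 to 408 TPM in Ezh2 KO and 3.01 to 7.13 TPM in Kdm6b KO. In the fit of batch 5 alone 7 of the 18 passed, and without control replicate 2, 11 did.

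Cer1 rose with them. It encodes a secreted antagonist of Nodal made by the anterior visceral endoderm, and it measured 155, 107 and 120 TPM in Zfp57 KO and 7.89, 25.9 and 9.44 TPM in controls (log2 change 3.23, limma adjusted p = 3.92e-09). On the gastrulation list Lhx1 and Foxa2 also rose, so 3 of the 6 genes tested were higher, against 5.33% of all genes. In the fit of batch 5 alone 1 was higher. The Foxa2 call was also lost without Zfp57 KO replicate 2 or 3 and without control replicate 1 or 3. Lhx1, an organizer homeobox gene, measured 1.76, 1.43 and 4.43 TPM in Zfp57 KO and 0.0301, 0 and 0.056 TPM in controls. In Ezh2 KO Cer1 averaged 133 TPM and Lhx1 15.8 TPM, and in Kdm6b KO 0 and 0.132 TPM. Foxa2 averaged 3.13 TPM in Zfp57 KO, 1 TPM in Ezh2 KO and 0 TPM in Kdm6b KO. Cer1, Lhx1 and Foxa2 are all also expressed in visceral endoderm, and Foxa2 is on both lists. T, Mesp1, Tbx6 and Sp5, genes of the primitive streak and its mesoderm, were listed at 0 in all Zfp57 KO libraries and did not reach the level for testing. Nodal, the signal that Cer1 antagonises, was lower in Zfp57 KO at 0.307, 2.8 and 1.92 TPM, against 8.17, 6.97 and 8.89 TPM in controls (log2 change -1.88, adjusted p = 0.0108 in limma). Its call was lost in the fit of batch 5 alone and without Zfp57 KO replicate 1. Nodal was also low in the other knockouts, at means of 2.3 TPM in Ezh2 KO and 1.85 TPM in Kdm6b KO. On the list of Polycomb developmental targets 4 of 8 genes tested were higher (Bmp2, Cdkn2a, Gata4 and Msx2) and 1 was lower (Msx1). The shares of all genes were 5.33% higher and 11.5% lower. Msx2 measured 5.01, 1.64 and 4.27 TPM in Zfp57 KO and 0, 0.359 and 0.0975 TPM in controls. Bmp2, Cdkn2a and Msx2 averaged 2.19, 2.6 and 3.64 TPM in Zfp57 KO and 4.19, 10.1 and 19.3 TPM in Ezh2 KO. In Kdm6b KO they averaged 0.303, 1.68 and 1.06 TPM. In the fit of batch 5 alone, 1 of the 8 was higher and 0 lower. The calls of Cdkn2a and Msx1 were also lost without 1 library, Zfp57 KO replicate 3 for Cdkn2a and control replicate 1 for Msx1.

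Trophoblast genes differed in both directions. Of 18 trophectoderm and extraembryonic ectoderm markers tested, Krt8, Krt18, Krt7, Plac1 and Ctsll3 were higher and Bmp4, Elf5, Hand1 and Tead4 lower. Among all genes 5.33% were higher and 11.5% lower. Plac1, a placental surface protein, measured 587, 502 and 524 TPM in Zfp57 KO and 128, 142 and 164 TPM in controls (log2 change 1.89, adjusted p = 1.3e-09 in limma). Its Zfp57 KO mean of 538 TPM ranked 12 of 50 groups in the screen, where control group means reached 624 TPM. Among 40 knockout groups, each set against its own controls, the change of Plac1 ranked 24 from the highest. Krt8, an epithelial keratin, measured 1039, 840 and 899 TPM in Zfp57 KO and 582, 581 and 510 TPM in controls. Elf5, a transcription factor of trophoblast stem cells, differed in the other direction, with 59.2, 73.4 and 66.9 TPM in Zfp57 KO and 169, 161 and 102 TPM in controls (log2 change -1.07). Bmp4, a signal of the extraembryonic ectoderm, measured 29.7, 27 and 23.7 TPM in Zfp57 KO and 150, 79.7 and 69.1 TPM in controls. Tead4 measured 2.2, 2.82 and 2.47 TPM in Zfp57 KO and 6.32, 13.1 and 9.61 TPM in controls, while Cdx2 was listed at 0 in all Zfp57 KO libraries and at 0.286 to 1.81 TPM in controls. Without control replicate 2, 4 were higher and 2 lower, and without Zfp57 KO replicate 2, 5 were higher and 2 lower; in the fit of batch 5 alone, 2 were higher and 1 lower.

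**Figure D5:**
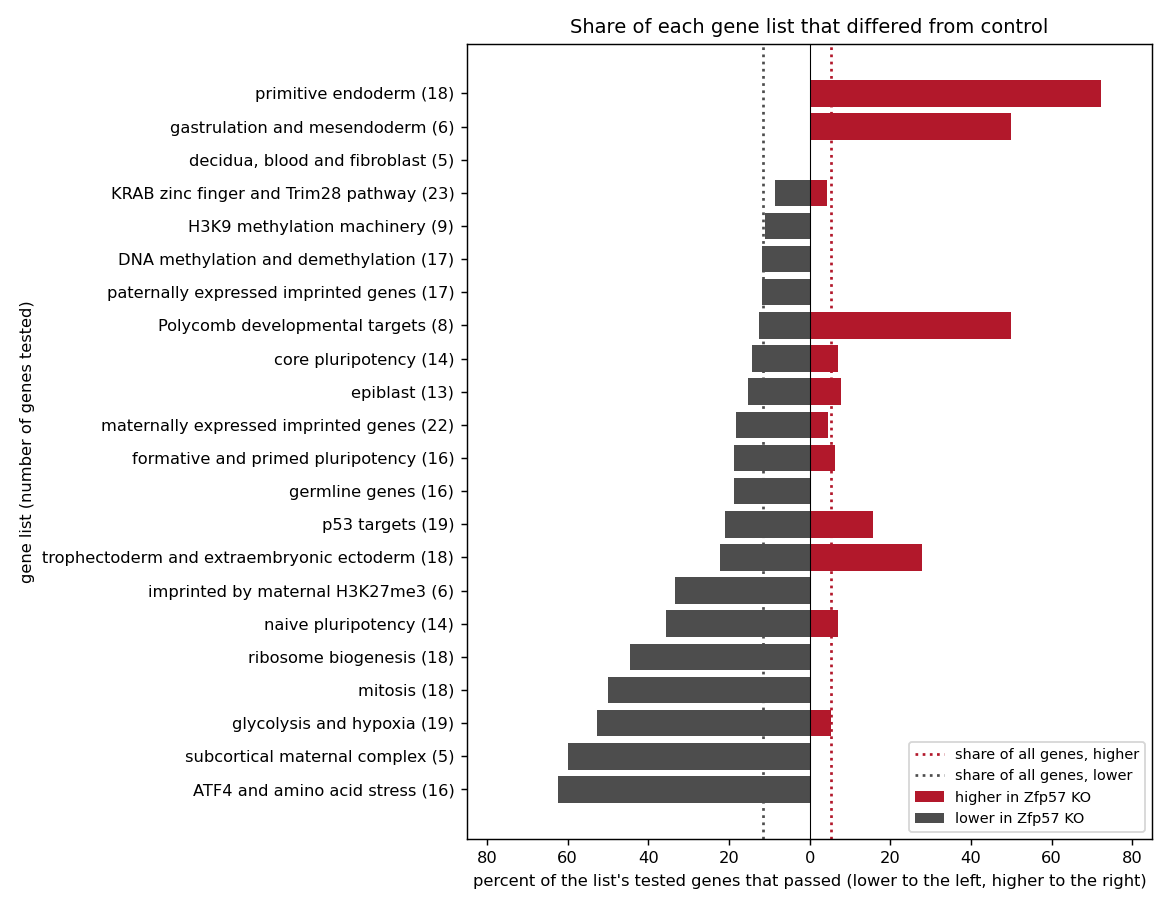
Percent of the tested genes of each list that passed as lower (left) or higher (right) in Zfp57 KO, with dotted lines at the shares over all genes (11.5% lower, 5.33% higher) and the number tested in brackets. Primitive endoderm markers stand out on the higher side, and the ATF4, subcortical maternal complex, glycolysis and mitosis lists on the lower side; the decidua, blood and fibroblast list has no call.

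A group of placental genes on chromosome 13 was high in Zfp57 KO. These lists of placental cathepsins and prolactins were chosen after the values had been seen. Ctsr, a placenta-specific cysteine protease, measured 26.7, 16.1 and 19.2 TPM in Zfp57 KO and was listed at 0 in all 3 controls. Ctsj, of the same family, measured 9.79, 5.45 and 3.48 TPM in Zfp57 KO and was also listed at 0 in the controls. Ctla2a, a cathepsin inhibitor, measured 7.75, 11.5 and 16.9 TPM in Zfp57 KO and was listed at 0 in controls and Ezh2 KO. Ctsr was highest in Zfp57 KO among the 50 groups of the screen: 139 of the other 145 libraries were listed at 0 and the highest of them, an Ascl2 KO library of batch 2, had 5.05 TPM. Ctsj was listed at 0 in 142 of the other 145 libraries. Ctsll3 was not particular to Zfp57 KO, since 92 of the other 145 libraries exceeded its lowest Zfp57 KO value. Cts8 was lower in Zfp57 KO, at 1.7, 0 and 0 TPM, against 4.92, 3.76 and 1.66 TPM in controls, and the groups overlapped. Counting of cathepsins may divide reads between near-identical copies.

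Prolactin-family hormones are made by trophoblast giant cells and spongiotrophoblast. Of 9 tested, 4 were higher (Prl2c5, Prl3d2, Prl5a1 and Prl7d1) and 1 lower (Prl4a1), against 5.33% and 11.5% of all genes. Prl2c5, a proliferin, measured 403, 448 and 390 TPM in Zfp57 KO and 21.6, 19.9 and 61.2 TPM in controls (log2 change 3.75, SE 0.59, adjusted p = 4.3e-07 in limma). Prl7d1 measured 10.5, 7.78 and 8.42 TPM in Zfp57 KO and 0, 0.352 and 2.73 TPM in controls. Across the screen, control group means reached 223 TPM for Prl2c5, 39.6 TPM for Prl7d1 and 5870 TPM for Prl3d1. The Zfp57 KO means of these genes were 413, 8.91 and 1830 TPM. Prl3d1 and Prl7a1 did not pass, with log2 changes of 0.51 and -0.05. Of the 9, 7 were higher and 1 lower without overlap between the groups, against 8.7% and 17.7% of all genes. In the fit of the 6 libraries alone 7 passed as higher, and without any 1 of the 6 libraries 3 did. All members named here except Prl5a1 were at most 13.7 TPM in the Ezh2 KO and Kdm6b KO libraries, the value of Prl7a1 in 1 Kdm6b KO library. Near-identical copies within the Prl2c and Prl3d clusters can share reads, so the split between them is uncertain.

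Genes of the amino acid response were lower in Zfp57 KO. ATF4 is the transcription factor that raises amino acid synthesis and transport genes under stress. Of 16 genes tested 10 were lower and 0 higher, with a median log2 change of -0.99, against 11.5% lower among all genes. Asns, asparagine synthetase, measured 301, 204 and 297 TPM in Zfp57 KO and 685, 680 and 786 TPM in controls (log2 change -1.44, adjusted p = 3.54e-12 in limma). Trib3, an inhibitor of ATF4 signalling and its target, measured 14.2, 5.11 and 10.3 TPM in Zfp57 KO and 61.1, 57.2 and 80.9 TPM in controls. Psat1, Slc3a2 and Mthfd2 had log2 changes of -0.93, -1.09 and -1.29, and Atf4 itself, with -0.84, fell to 206, 118 and 136 TPM in Zfp57 KO, against 275, 271 and 260 TPM in controls. Ddit3, Chac1 and Nupr1, other stress genes, did not pass. Ezh2 KO and Kdm6b KO were low as well, with summed levels of 1480, 934 and 1300 TPM in Zfp57 KO, 945 to 1320 TPM in Ezh2 KO and 1370 to 1410 TPM in Kdm6b KO, against 2750, 2540 and 2720 TPM in controls. The Trib3 mean of the batch 5 controls, 66.4 TPM, was the highest of the 50 groups.

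Glycolysis, mitosis and ribosome biogenesis showed smaller falls, set beside 11.5% of all genes that were lower. Of 19 glycolysis and hypoxia genes 10 were lower, among them Gapdh at 1004, 800 and 1047 TPM in Zfp57 KO and 1748, 2004 and 1831 TPM in controls (log2 change -0.98, adjusted p = 1.34e-09 in limma). Pkm, pyruvate kinase, had a log2 change of -1.19 and Eno1, enolase, of -0.85. The sums of this list were 10000, 7270 and 8500 TPM in Zfp57 KO and 14900, 14400 and 14900 TPM in controls. The other knockouts were low as well, at 9090, 5970 and 6710 TPM in Ezh2 KO and 6650, 6790 and 7230 TPM in Kdm6b KO. The glucose transporter Slc2a3 rose, at 26.7, 26.9 and 31.5 TPM in Zfp57 KO and 11.1, 8.03 and 11.2 TPM in controls; its call was lost without Zfp57 KO replicate 3 or control replicate 2. Of 18 mitosis genes 9 were lower, led by Plk1, a mitotic kinase, at 26.1, 24 and 29.4 TPM in Zfp57 KO and 137, 162 and 62 TPM in controls, and Cdc20, an activator of the anaphase-promoting complex, which had a log2 change of -0.91. Mki67, Top2a and Birc5 did not pass, and in the fit of batch 5 alone 5 of the 18 were lower. Mitosis sums were 3090, 2550 and 2680 TPM in Zfp57 KO and 4230, 4340 and 3680 TPM in controls. They were 3870, 3070 and 3370 TPM in Ezh2 KO and 2960, 2890 and 2950 TPM in Kdm6b KO. Of 18 ribosome biogenesis genes 8 were lower, of which Nop2 had a log2 change of -1.76. With quantile normalization 4 passed, without control replicate 1, 5 did, and in the fit of batch 5 alone 2 did. Sums of these genes were 6230, 6460 and 6760 TPM in Zfp57 KO and 7190, 7000 and 7370 TPM in controls. They were 5540, 4980 and 5130 TPM in Ezh2 KO and 7140, 7270 and 7070 TPM in Kdm6b KO. Trp53 fell to 172, 141 and 167 TPM in Zfp57 KO, against 380, 452 and 379 TPM in controls (log2 change -1.33, adjusted p = 1.93e-09 in limma). It averaged 166 TPM in Ezh2 KO and 144 TPM in Kdm6b KO. Of 19 genes on the p53 list 3 were higher (Cdkn1a, Btg2 and Rps27l) and 4 lower (Trp53, Sesn2, Plk2 and Aen). Among all genes 5.33% were higher and 11.5% lower.

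Naive pluripotency genes were more often lower than higher. On this list of 14 tested, with a median log2 change of -0.87, Zfp42, Nr0b1, Mybl2, Esrrb and Klf5 were lower and Dppa5a higher. The shares of all genes were 11.5% lower and 5.33% higher. Zfp42 (Rex1) measured 86.4, 70.9 and 74 TPM in Zfp57 KO and 178, 146.5 and 148.5 TPM in controls (log2 change -1.02, adjusted p = 7.31e-06 in limma). Dppa5a measured 3591, 3924 and 3403 TPM in Zfp57 KO and 2371, 2220 and 2489 TPM in controls. Zfp42, Nr0b1, Mybl2 and Dppa5a averaged 61.5, 0.963, 20.8 and 4349 TPM in Ezh2 KO. In Kdm6b KO they averaged 205, 12.1, 20.1 and 2842 TPM, and in controls 158, 12.2, 52.8 and 2360 TPM. Mybl2 was thus low in all 3 knockouts, while Zfp42 and Nr0b1 were not low in Kdm6b KO. Among the epiblast markers Tdgf1, the Nodal co-receptor, was higher at 159, 127 and 136 TPM in Zfp57 KO and 99.4, 75.4 and 69.7 TPM in controls, while Utf1 was lower. The Tdgf1 call was lost in the fit of batch 5 alone and without Zfp57 KO replicate 1 or control replicate 3. Utf1 was lower still in the other knockouts, at means of 408 TPM in Ezh2 KO and 435 TPM in Kdm6b KO, against 630 TPM in Zfp57 KO. Pou5f1, Otx2, Fgf5 and Dnmt3b did not pass. In the fit of batch 5 alone 2 naive genes were lower, and without Zfp57 KO replicate 1 or 3, 3 were. Without control replicate 2, 4 were lower and the median log2 change of the list was only -0.188.

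The partners of ZFP57 were mostly not called. Of 23 genes of the KRAB zinc finger and Trim28 pathway, Cbx3 (HP1 gamma) was higher and Daxx and Zfp809 lower. These counts are near the shares of all genes, 5.33% higher and 11.5% lower. Trim28, the corepressor that ZFP57 recruits, measured 93.5, 96.5 and 94.3 TPM in Zfp57 KO and 125, 95.5 and 99.9 TPM in controls and did not pass. Zfp445, the other zinc finger protein known to maintain imprints, measured 4.5, 3.15 and 7.51 TPM in Zfp57 KO and 4.66, 2.38 and 4.89 TPM in controls. Zfp809, which silences retroviruses, measured 13.8, 6.38 and 8.02 TPM in Zfp57 KO and 31.8, 35.2 and 10.2 TPM in controls. The groups of Zfp809 overlapped, and its call was lost without Zfp57 KO replicate 2 or 3 and without control replicate 1 or 2. Of 17 DNA methylation genes Dnmt3l and Zfp42 were lower, which is close to the 11.5% of all genes. Dnmt3l, the cofactor of de novo methylation, measured 35.7, 8.88 and 22.1 TPM in Zfp57 KO and 56.4, 58.3 and 73.2 TPM in controls (log2 change -1.64, adjusted p = 1.01e-07 in limma), and its call was lost in the fit of batch 5 alone. Dnmt1, Uhrf1, Dnmt3a and Dnmt3b did not pass.

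Oocyte genes were high in control replicate 2, as given above. Of the 5 tested genes of the subcortical maternal complex list, Tle6, Zbed3 and Nlrp4f were lower, against 11.5% of all genes. Zbed3 measured 2.71, 1.26 and 6.16 TPM in Zfp57 KO and 4, 130 and 15.5 TPM in controls. Tle6, in contrast, was lower than every control, at 4.41, 0.296 and 1.88 TPM in Zfp57 KO and 20.2, 14.1 and 13.3 TPM in controls, and its call was lost without Zfp57 KO replicate 2. The Nlrp4f call was lost without Zfp57 KO replicate 1 or 2 and without control replicate 2 or 3. Without control replicate 2, 1 of the 5 was lower and 1 higher, and of 10 oocyte genes tested 0 were lower, against 9 with that library. Of 16 germline genes Tex19.1, Rhox5 and Brdt were lower, against 11.5% of all genes. Brdt overlapped at 0.226, 6.37 and 0.23 TPM in Zfp57 KO and 3.34, 23.2 and 3.75 TPM in controls, and its call was lost without control replicate 2, without Zfp57 KO replicate 1 or 3 and in the fit of batch 5 alone. Tex19.1 measured 96.5, 58.9 and 108 TPM in Zfp57 KO and 232, 253 and 253 TPM in controls. Of 9 genes of the H3K9 methylation list Kmt5c was lower, which is close to the 11.5% of all genes. Of the 5 markers of decidua, blood and fibroblasts tested 0 passed.

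A more stringent set was given by genes that passed in the same direction against controls, against Ezh2 KO and against Kdm6b KO. These 3 comparisons share the Zfp57 KO libraries. Against the mean of both knockouts, 354 of 11135 genes (3.18%) were higher and 411 (3.69%) lower, 6.87% in all. Against Ezh2 KO alone 5.61% of genes were higher and 10.2% lower, 15.8% in all. Against Kdm6b KO alone 5.16% were higher and 2.07% lower, 7.23% in all. In all 3 comparisons 41 genes were higher (0.402% of those tested) and 29 lower (0.285%), and the Zfp57 KO libraries did not overlap any of the other 9 libraries for 29 and 23 of them. In the fit of batch 5 alone they were 18 and 9.

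The 41 genes included Phlda2, Ctsr, Ctsj, Ctsll3, Ctla2a, Prl2c5, Prl3d2, Prl7d1 and Serpinb6c. Serpinb6c overlapped Ezh2 KO, and its Zfp57 KO mean of 107 TPM ranked 39 of 50 groups, below the median group mean of 223 TPM. Nppb, a natriuretic peptide, measured 166, 198 and 214 TPM in Zfp57 KO and 38.9, 28.5 and 29.1 TPM in controls (log2 change 2.55, adjusted p = 6.38e-05 in limma). Mdk, a heparin-binding growth factor, measured 761, 510 and 517 TPM in Zfp57 KO and 370, 293 and 305 TPM in controls. Ngb, neuroglobin, measured 5.55, 7.96 and 8.68 TPM in Zfp57 KO and 0, 0.0955 and 0 TPM in controls. In all 3 the Zfp57 KO libraries were above each of the other 9. Gsta1, Gsta2 and Gm3776, near-identical glutathione transferases on chromosome 9 that can share reads, were about as high in each Zfp57 KO library, with Gsta1 at 105, 112 and 113 TPM in Zfp57 KO and 38.9, 48.8 and 50.1 TPM in controls. Crabp2, which carries retinoic acid, measured 133, 141 and 142 TPM in Zfp57 KO and 44.8, 72.3 and 68.2 TPM in controls.

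The 29 genes included Slc38a4, Zfp809 and members of X-linked reproductive homeobox and Xlr families. Rhox5, known to be silenced by DNA methylation in somatic cells, measured 2445, 2618 and 2683 TPM in Zfp57 KO and 3515, 3268 and 3649 TPM in controls (log2 change -0.43, adjusted p = 0.00274 in limma). Rhox4e and Rhox4f, near-identical copies, had log2 changes of -1.26 and -0.91, and Xlr3b measured 65.3, 60.5 and 59.7 TPM in Zfp57 KO and 112, 86.9 and 108 TPM in controls. Id2, an inhibitor of basic helix-loop-helix factors, measured 339, 470 and 469 TPM in Zfp57 KO and 843, 847 and 869 TPM in controls (log2 change -1.02, adjusted p = 4.54e-10 in limma). Gsto1, a glutathione transferase of another class, measured 576, 546 and 527 TPM in Zfp57 KO and 718, 870 and 748 TPM in controls. Cenpa, the centromeric histone, measured 347, 278 and 279 TPM in Zfp57 KO and 409, 437 and 401 TPM in controls. The Zfp57 KO libraries lay below each of the other 9 for Rhox5, Rhox4e, Rhox4f, Xlr3b, Id2, Gsto1 and Slc38a4, and overlapped them for Cenpa.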

How the data were processed

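The TPM of 25006 genes in the screen libraries were used as the authors deposited them. The processing notes of the submitters list StringTie 2.2.1, HISAT2 2.2.1, Cufflinks and the build mm10, without saying which step each served. Columns of batch 5 summed to 984852 to 988620 TPM. TPM keep no depth, so precision is known only from replicates.

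Tested genes reached 1 TPM in 3 or more compared libraries. The model was limma 3.58.1 (R 4.3.3) for log2(TPM + 1), with group as the factor and moderated variances following mean expression. All screen libraries were fitted together; 3 Aurkb KO libraries correlated at 0.999 and were averaged to 1. Adjustment ran over all genes tested. The fit was tested on simulated data. Named genes were Zfp57, the 12 largest rises and falls that passed without overlap at a mean of 5 TPM or more, imprinted genes that passed or reached 10 TPM, and up to 4 passing genes of each list; others were named after their values were seen, and 1 gene that passed is not reported here. Genes with clone names, such as Gm and Rik symbols, and pseudogenes were left out of the largest rises and falls. Members and lists were chosen with earlier results of these data known. Replicate numbers did not pair the samples: deviations of same-numbered libraries correlated at 0.0107, -0.0211 and -0.0407. P-values measure only the spread between these libraries, which may be technical. GENCODE release 21 for mouse (vM21, mm10) placed 9968 of 10191 genes. Promoters came from RefSeq (GRCm38.p6). Alternatives were other filters, pseudocounts, scaling, weights and sets of libraries. The R package data.table (version 1.17.8) read the files; matplotlib 3.10.9 under Python 3.11.15 made the plots.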

Additional observations from a re-analysis of the deposited data

How the results depend on the processing

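Counts fell most when the spread came from fewer libraries. Against controls, 543 genes were higher and 1169 lower; the fit of batch 5 alone gave 184 and 278, the 6 libraries alone 215 and 399, library weights 280 and 752, a change of at least 2-fold 256 and 698, and quantile normalization 823 higher. With the replicate number as a block in batch 5 (replicate block) they were 194 and 318. Leaving out 1 library gave 360 to 556 higher and 655 to 1105 lower, the lowest without Zfp57 KO replicate 2. Against the mean of both other knockouts, 354 were higher and 411 lower; without a filter 547 were higher, batch 5 alone gave 70 and 64, the compared libraries alone 75 and 53, weights 177 and 161, the replicate block 74 and 53, 2-fold 208 and 237, Ezh2 KO alone 580 and 1052, and Kdm6b KO alone 208 lower. Leaving out 1 library gave 220 to 461 higher and 187 to 424 lower. The lowest counts came without Zfp57 KO replicate 1 (220 higher) and replicate 2 (187 lower).

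For imprinted genes, 1 higher became 2 with a pseudocount of 0.1, 6 with quantile normalization and 1 to 4 when leaving out a library, and 8 lower became 3 in batch 5 alone, 4 in the compared libraries alone, 4 with the replicate block and 6 to 8 when leaving out a library. Zfp57 changed by -1.27 without a filter (adjusted p = 0.0541), by -1.44 with a pseudocount of 0.1 (0.116), and by -1.27 in batch 5 alone (0.323), in the compared libraries alone (0.294) and with the replicate block (0.212), all in limma and not past the threshold; leaving out a library gave -1.92 to -0.71.

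Of 82 other named genes that passed, 51 passed under all alternatives run, and no call among the 97 changed sign. The genes higher against all 3 other groups were 41, or 168 without a filter. That count, the separate comparisons with Ezh2 KO and Kdm6b KO and the counts per list were added after the data were seen.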

Other observations

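The share of genes called differed between chromosomes, and whether the spread is uneven was not tested. Among all genes 5.33% were higher and 11.5% lower. Chromosome X had the largest share of higher genes and chromosome 8 the smallest. Of genes tested on chromosome X, 34 of 372 (9.14%) were higher in Zfp57 KO and 31 (8.33%) lower, with a median log2 change of 0.03, while on chromosome 8 18 of 545 (3.3%) were higher and 81 (14.9%) lower. On chromosome 13, which carries the cathepsin, prolactin and Serpinb6 clusters, 27 of 377 (7.16%) were higher and 40 (10.6%) lower, and on chromosome 3 34 of 470 (7.23%) were higher and 43 (9.15%) lower. These shares are descriptions of neighbouring genes, which are not independent.

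Among 22 glutathione transferases tested, a list chosen after the values had been seen, 5 were higher (Gsta1, Gsta2, Gstp1, Gstp3 and Mgst2) and 1 lower (Gsto1). The shares of all genes were 5.33% and 11.5%. Gstp1 measured 722, 629 and 606 TPM in Zfp57 KO and 446, 516 and 493 TPM in controls (log2 change 0.43, limma adjusted p = 0.00016). Gstp3 and Mgst2 were listed at 0 in all 3 controls. Among 13 immune genes tested, a list also chosen after the values had been seen, Cxcl11, Psmb8, Bst2 and Zbp1 were lower, against 11.5% of all genes; without control replicate 2, and likewise in the fit of batch 5 alone, 2 of the 13 were. Psmb8, an immunoproteasome subunit, measured 1.82, 0 and 1.88 TPM in Zfp57 KO and 10.6, 10.5 and 8.73 TPM in controls.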
